A study of Mus musculus with 6 samples.

Results

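Immediate early genes are described here as 33 named mouse genes, of 40879 gene symbols in the count files. All 33 were found by symbol. The cultures, treated with APB-R3 or vehicle, were labelled as hepatic stellate cells. Though the members were chosen with earlier results of these data known, the rule uses names and no measured value. It holds transcription factors of the FOS, JUN, EGR, NR4A, KLF and MAF families with Atf3 and Myc, the IER genes, MAP kinase phosphatases of the DUSP family, the RNA-binding ZFP36 proteins, the antiproliferative BTG genes, the GTPase Rhob and the kinase Sgk1. Both groups were primary cells of wild-type male mice. One group, of 3 libraries, was kept for 24 h with APB-R3, an engineered IL-18 binding protein, and the other, of 3 libraries, for the same time with vehicle. For the dose, the series text gives 150 µg per ml but the protocol of the samples 150 µg per kg, which leaves the unit uncertain. The sources used here do not say whether replicates came from separate animals or cultures. Every p-value therefore rests on how these samples varied, and that variation may be technical.

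Immediate early genes are transcribed without new protein synthesis when a cell receives a growth factor, cytokine, stress or mechanical stimulus. MAP kinases activate factors already bound at their promoters, such as serum response factor with its ETS partners and CREB. The best known members, Fos and Egr1 among them, peak and decay quickly, because FOS protein represses its own gene, the mRNAs carry AU-rich elements that ZFP36 proteins bind, and DUSP phosphatases switch the kinases off. Other members of the list stay transcribed in steady culture. FOS and JUN proteins pair through leucine zippers to form AP-1, a factor known for driving matrix and inflammatory genes in stellate cells. A sample taken at 24 h reads the late level of all of these genes, not the first response.

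Libraries held 8323809 to 10792531 counts with APB-R3 and 10431310 to 10573916 with vehicle. APB-R3 replicate 1 was the smallest. The cultures carried stellate and other mesenchymal transcripts such as Dcn (307 CPM with APB-R3 and 308 CPM with vehicle, where CPM is a gene's share of the library total, scaled up), Col1a1 (137 and 141 CPM) and Nes (123 and 129 CPM). Lrat, the retinyl ester synthase that defines quiescent stellate cells, had 1.34 and 2.03 CPM. Other stellate markers were low too, such as Pdgfrb (8.76 and 7.49 CPM), Des (3.79 and 5.61 CPM) and Reln (11.2 and 11.7 CPM). The 15 quiescent and pericyte stellate markers summed to 660 to 689 CPM with APB-R3 and 634 to 703 CPM with vehicle. Of the 11 activated stellate markers, all tested, 4 were higher and 7 lower with APB-R3. In edgeR's test 3 had an unadjusted p under 0.05, all lower and none passing after adjustment. Of all tested genes, 1.57% were lower at that p. The 3 markers were Acta2 (97.2 CPM with APB-R3 and 131 CPM with vehicle), Col1a2 (109 and 129 CPM) and Postn (8.13 and 11.7 CPM). The groups overlapped for Col1a2. Liver endothelial markers included Lyve1 (1748 CPM with APB-R3 and 1682 CPM with vehicle) and Pecam1 (890 and 979 CPM). Of the 14 on that list, all tested, 3 were higher with APB-R3, Lyve1 among them, and 11 lower. Their median log2 fold change was −0.11, and 0 had an unadjusted p under 0.05 in edgeR's test. Of all tested genes, 49.3% were lower. The 14 liver endothelial markers summed to 6909 to 7966 CPM with APB-R3 and 7428 to 8123 CPM with vehicle. Against these stood 637 to 798 CPM with APB-R3 and 763 to 877 CPM with vehicle for 11 markers of activated stellate cells, and 498 to 709 CPM and 424 to 610 CPM for 14 macrophage markers. In every library the endothelial sum was above that of either stellate list. Of the 14 macrophage markers, 12 were tested, 9 higher and 3 lower with APB-R3, and 0 had an unadjusted p under 0.05 in edgeR's test. The 12 hepatocyte markers summed to 24.0 to 35.2 CPM with APB-R3 and 26.6 to 126 CPM with vehicle, the highest being vehicle replicate 2. Of the neutrophil markers, Ly6g, Camp, Elane and Cxcr2 had 0 counts in all 6 libraries, as did Cd3e, Cd8a, Cd79a and Ncr1 among lymphocyte markers. The 10 neutrophil markers summed to 3.71 to 5.46 CPM with APB-R3 and 2.28 to 9.68 CPM with vehicle. Of these, 3 were tested, S100a8 (2.17 and 2.04 CPM), S100a9 and Ltf. The 12 lymphocyte markers summed to 2.04 to 2.22 CPM with APB-R3 and 0.476 to 1.44 CPM with vehicle. Of these, 1 was tested, Klrb1c (1.66 and 0.762 CPM). All values below are those of whole cultures, in which fewer cells of a type and less RNA per cell cannot be told apart, and the part of these markers in them was not tested.

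The 33 genes together took 0.410%, 0.410% and 0.420% of all counts in APB-R3 replicates 1 to 3, and 0.428%, 0.407% and 0.385% in vehicle replicates 1 to 3. Their summed level was 4134 ± 57.7 CPM with APB-R3 and 4066 ± 213 CPM with vehicle (SD, n = 3 each). The APB-R3 libraries lay within the range of the vehicle libraries. Levels spread widely between members. With a protocol that reads 1 fragment at the 3′ end of a transcript, CPM compares genes without division by length. On that scale 8 members averaged at least 100 CPM, 15 lay between 10 and 100 CPM, 7 between 1 and 10 CPM and 3 below 1 CPM. The top 3, Rhob, Ier3 and Klf6, held between 52.3% and 55.8% of the members' counts in APB-R3 libraries and between 48.7% and 53.4% in vehicle libraries.

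Rhob, a small GTPase of endosomes and the actin cytoskeleton, led with 844, 936 and 904 CPM in APB-R3 replicates 1 to 3, against 925, 922 and 731 CPM in vehicle replicates 1 to 3. Its mean level was above 99.1% of the 12776 genes tested. Klf6, a zinc-finger factor described in activated rat stellate cells among others, had 521, 456 and 438 CPM with APB-R3 and 537, 414 and 429 CPM with vehicle. Both genes overlapped between the groups. Vehicle replicate 3 was the low library for Rhob, and replicate 1 of each group was the high one for Klf6. The log2 fold change was 0.05 (SE 0.10) for Rhob and 0.03 (SE 0.10) for Klf6. It turned without vehicle replicate 3 for Rhob (−0.05), and without APB-R3 replicate 1 (−0.05), vehicle replicate 2 (−0.03) or vehicle replicate 3 (−0.02) for Klf6.

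Lower on the scale, Egr1, a zinc-finger factor, had 11.3, 9.45 and 15.0 CPM with APB-R3 and 12.6, 13.0 and 9.33 CPM with vehicle. Ier2, a small nuclear protein gene, averaged 6.95 ± 1.33 CPM with APB-R3 and 5.84 ± 0.308 CPM with vehicle, and Nr4a2, an orphan nuclear receptor, 8.12 ± 1.44 and 7.23 ± 1.30 CPM (SD, n = 3 each). Egr2, Nr4a1 and Dusp5 averaged between 1.41 and 3.07 CPM in either group. Fosb, Egr3 and Nr4a3 were below the count filter and were not tested. Over the 3 libraries of a group Fosb had 20 counts with APB-R3 and 17 with vehicle, Egr3 had 4 and 7, and Nr4a3 had 5 and 18. In CPM, Nr4a3 was at 0.171 with APB-R3 (exact 95% Poisson interval 0.0556 to 0.400) and 0.571 with vehicle (0.339 to 0.903). Fosb was at 0.685 (0.42 to 1.06) and 0.539 (0.314 to 0.864), and Egr3 at 0.137 (0.0373 to 0.351) and 0.222 (0.0893 to 0.458). These intervals cover counting error only. Of the 18 vehicle counts of Nr4a3, 9 came from replicate 2, and all 7 of Egr3 from replicate 1. In edgeR's test with no filter on low counts, none of these 3 genes had an unadjusted p under 0.05.

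**Figure D1:**
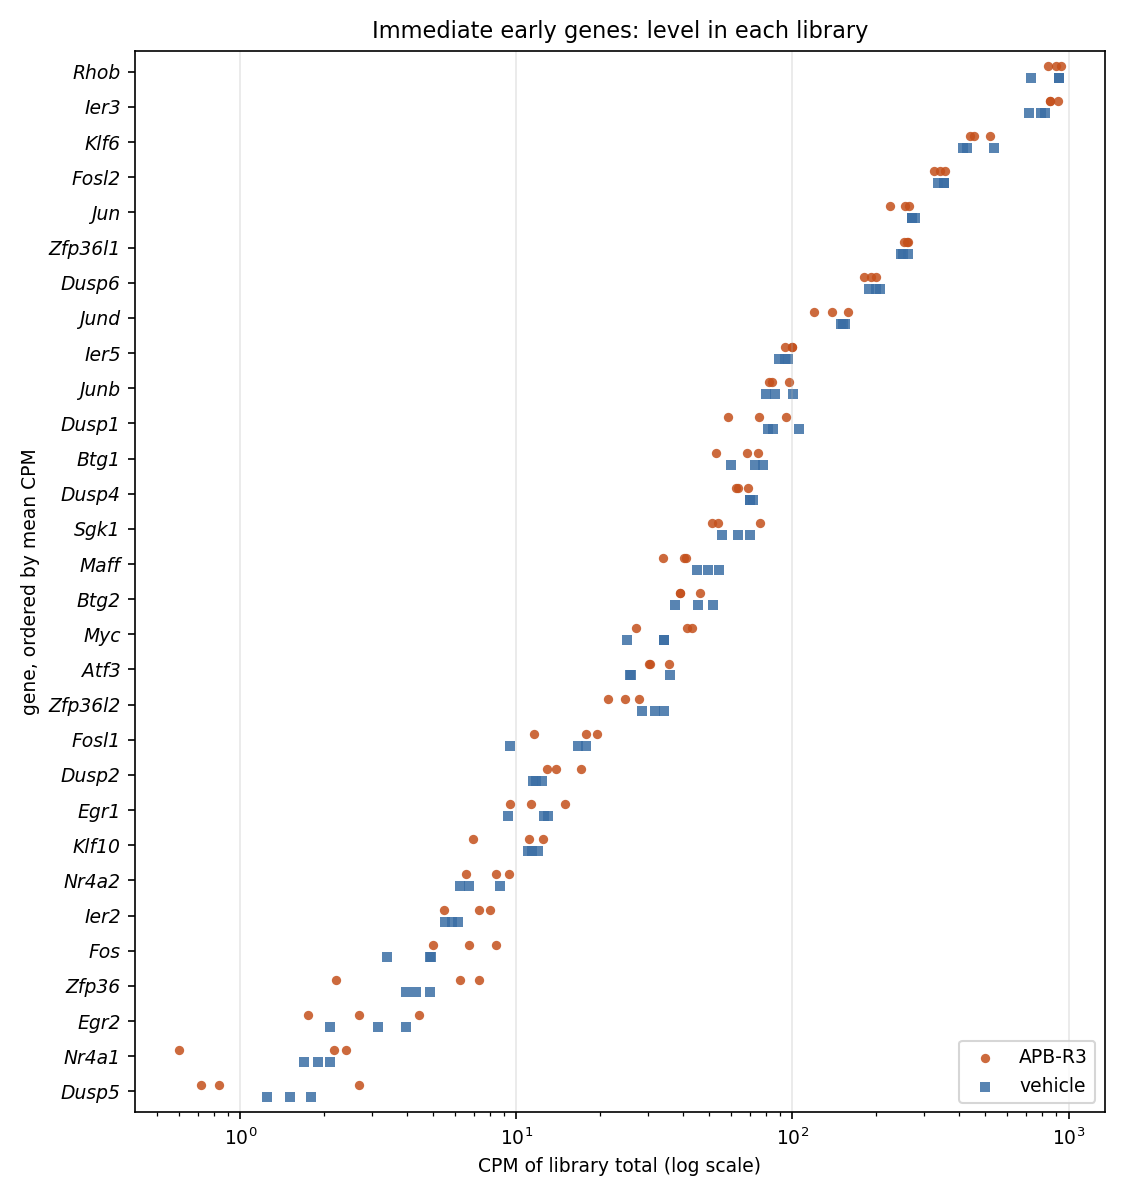
Level of the 30 tested immediate early genes in each library, as CPM of the library total on a log axis, with 3 APB-R3 libraries as circles and 3 vehicle libraries as squares; genes run from the highest mean level at the top. Rhob and Ier3 sit near the top of the scale, Egr2, Nr4a1 and Dusp5 at the bottom, and for most genes circles and squares overlap.

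The comparison of the series sets APB-R3 against vehicle to ask what the binding protein does to stellate cell activation. Among immediate early genes it gave no call. Of 30 members tested, 0 had an adjusted p under 0.05 by the quasi-likelihood test of edgeR, where the percentage of all tested genes called was 0.0. Each member had an adjusted p of 0.9998. At an unadjusted p under 0.05 there were 2 members, Maff and Zfp36l2, both lower with APB-R3, against 3.33% of all tested genes in either direction, 1.57% lower and 1.75% higher. DESeq2's Wald test and limma-voom also called 0 members and had 3 each at an unadjusted p under 0.05, the third being Ier3. By sign, 14 of the 30 members were higher with APB-R3 and 16 were lower, where 50.7% of all tested genes were higher and 49.3% lower. The median log2 fold change of the members was −0.03, and that of all tested genes 0.003. In size, the median absolute log2 fold change was 0.126 for the members and 0.118 for all tested genes, and 25 members lay under 0.25. For the 8 members with at least 100 CPM, the unadjusted 95% intervals of the log2 fold change lay between −0.35 and 0.34.

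Groups did not overlap for 7 of the 30 members, or 23.3%, against 8.91% of all tested genes. With APB-R3 the libraries were all higher for Ier3, Fos and Dusp2, where 4.75% of tested genes did this, and all lower for Maff, Zfp36l2, Jun and Dusp4, where 4.16% did. The same 7 members did not overlap on TMM-scaled CPM, where the share of all tested genes was 8.81%. Of these 7, only Maff and Zfp36l2 had an unadjusted p under 0.05 in edgeR's test. The members were chosen with earlier results of these data known, and the difference between these shares was not tested.

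Maff encodes a small MAF protein, a basic leucine zipper factor with no activation domain of its own. It had 41.1, 34.0 and 40.5 CPM in APB-R3 replicates 1 to 3, against 49.6, 45.1 and 54.2 CPM in vehicle replicates 1 to 3. All 3 APB-R3 libraries lay below the lowest vehicle library, replicate 2. Maff averaged 38.5 ± 3.93 CPM with APB-R3 and 49.6 ± 4.57 CPM with vehicle (SD, n = 3 each), a log2 fold change of −0.37 (SE 0.13, 95% interval −0.64 to −0.11, unadjusted p = 0.00763). It had the smallest p of the members, and its log2 fold change ran from −0.48 to −0.29 over all alternatives, with adjusted p from 0.902 to 0.99998.

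Zfp36l2 encodes a zinc-finger protein that binds AU-rich elements and speeds the decay of mRNAs, those of immediate early genes among them. It had 21.4, 24.6 and 27.7 CPM with APB-R3, against 31.6, 34.1 and 28.6 CPM with vehicle. The groups came close together, with APB-R3 replicate 3 just under vehicle replicate 3. Zfp36l2 had a log2 fold change of −0.36 (SE 0.15, unadjusted p = 0.0231), which was −0.28 without APB-R3 replicate 1 and −0.20 without both that library and vehicle replicate 2. Its relative Zfp36l1, which took 88.5% to 90.4% of the family's counts with APB-R3 and 86.6% to 88.7% with vehicle, had 259, 254 and 262 CPM with APB-R3 and 252, 247 and 263 CPM with vehicle. The difference in Zfp36l1 was small, at a log2 fold change of 0.02 (95% interval −0.16 to 0.20). Zfp36 itself, the founding member, had 7.33, 2.22 and 6.25 CPM with APB-R3 and 4.31, 3.97 and 4.85 CPM with vehicle. Replicate 2 was thus the lowest and replicate 1 the highest of all 6 libraries, both of them with APB-R3, and the log2 fold change of 0.25 (SE 0.39) turned to −0.07 without the highest library and was 0.62 without the lowest.

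**Figure D2:**
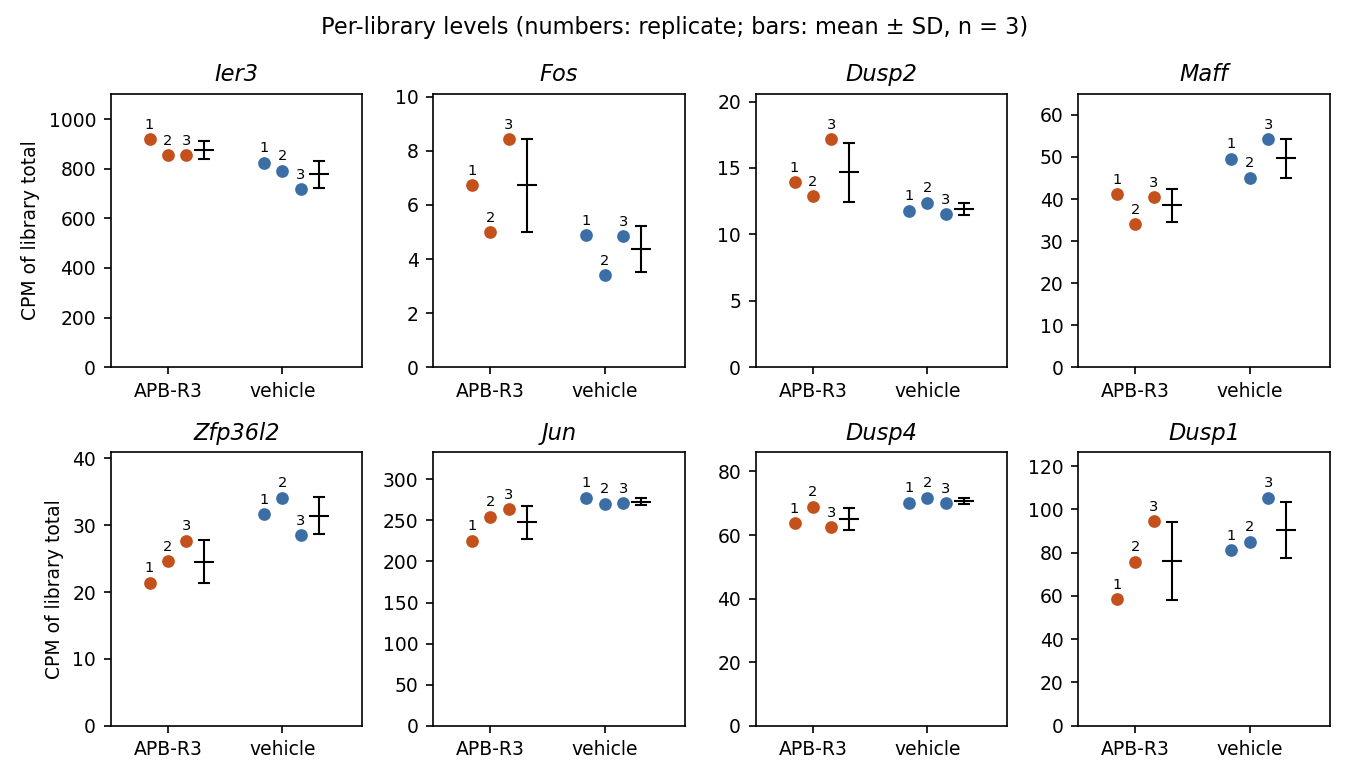
CPM of the library total for the 7 members whose groups did not overlap and for Dusp1, with APB-R3 left of vehicle in each panel; points are libraries with their replicate number, and bars the mean ± SD (n = 3). Maff lies between 34.0 and 41.1 CPM with APB-R3 and between 45.1 and 54.2 CPM with vehicle, while Dusp1 overlaps and is lowest in APB-R3 replicate 1.

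Fos, the partner of JUN proteins in classic AP-1, had the largest fold of the tested members at a low level. It had 6.73, 5.003 and 8.44 CPM with APB-R3, from 56, 54 and 85 counts, against 4.89, 3.40 and 4.85 CPM with vehicle, from 51, 36 and 51 counts. APB-R3 replicate 2 lay barely above vehicle replicate 1. The log2 fold change was 0.61 (SE 0.32, 95% interval −0.06 to 1.28, unadjusted p = 0.0741), and between 0.42 and 0.78 with 1 library left out.

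Fosl2 and the 3 JUN genes had higher levels than Fos. Fosl2, a FOS relative without a strong activation domain, had 326, 355 and 341 CPM with APB-R3 and 354, 354 and 336 CPM with vehicle. It took 92.3% to 94.3% of the counts of the 4 FOS genes with APB-R3 and 93.4% to 96.5% with vehicle. Its log2 fold change was −0.03 (95% interval −0.21 to 0.15). Fosl1, often induced by sustained ERK signalling, had 19.6, 17.9 and 11.6 CPM with APB-R3 and 16.8, 9.46 and 17.8 CPM with vehicle, so that each group had 1 low library. Its log2 fold change of 0.15 (SE 0.24) turned to −0.07 without vehicle replicate 2.

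Jun, the main partner of FOS proteins, had 225, 255 and 263 CPM with APB-R3, against 278, 270 and 271 CPM with vehicle. The vehicle libraries lay close together above all 3 APB-R3 libraries, of which replicate 1 was the lowest. The log2 fold change was −0.14 (SE 0.09, unadjusted p = 0.120), and −0.09 without APB-R3 replicate 1. Jund, the JUN member known for steady expression, had 139, 119 and 159 CPM with APB-R3 and 150, 153 and 155 CPM with vehicle, a log2 fold change of −0.14 (SE 0.10). Leaving out APB-R3 replicate 2 made it −0.05, and leaving out replicate 3 of that group −0.24. Here APB-R3 replicate 3 lay above the vehicle libraries and the other two below. Junb, a JUN member with weaker activation, averaged 87.9 ± 8.06 CPM with APB-R3 and 89.0 ± 10.1 CPM with vehicle (SD, n = 3 each). The 3 JUN genes summed to 449, 456 and 519 CPM in APB-R3 replicates 1 to 3, and to 528, 510 and 506 CPM in vehicle replicates 1 to 3. The groups overlapped in this sum through APB-R3 replicate 3.

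**Figure D3:**
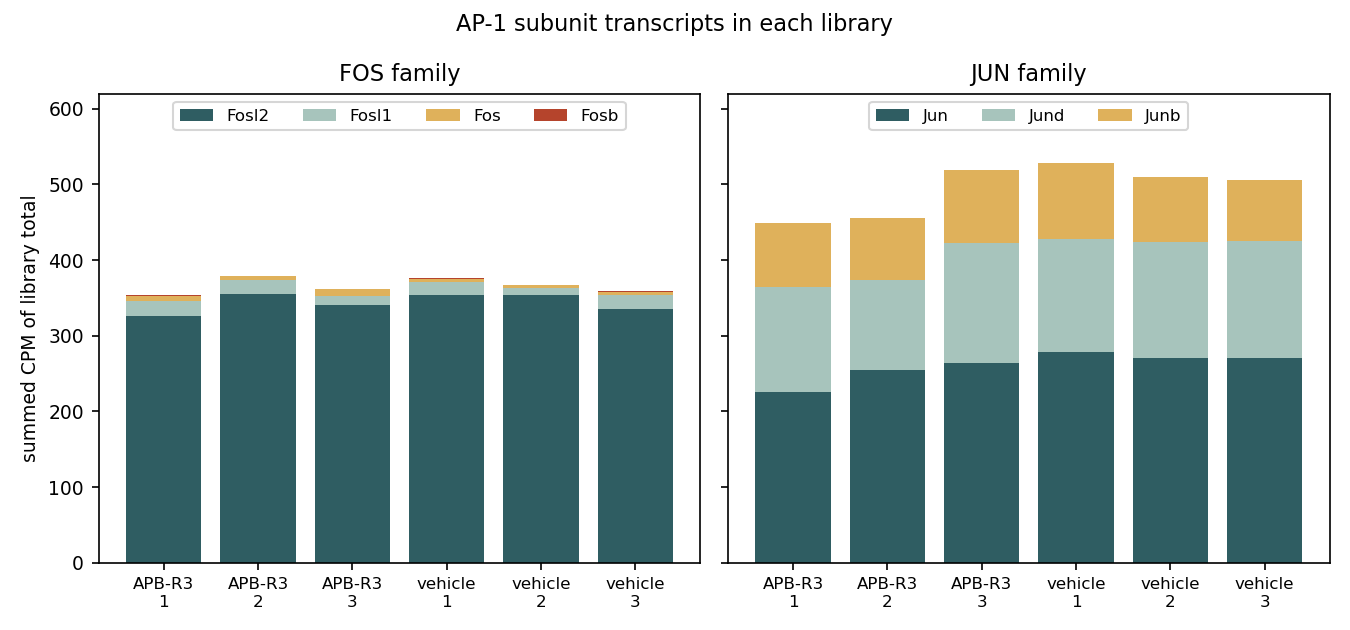
Summed CPM of the library total of the 4 FOS genes (left panel) and the 3 JUN genes (right panel), stacked by gene, with the 3 APB-R3 libraries left of the 3 vehicle libraries. Fosl2 fills between 92.3% and 96.5% of every FOS bar, and Jun between 50.2% and 55.8% of every JUN bar.

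Of the DUSP phosphatases, which remove the activating phosphates of MAP kinases, Dusp6, specific for ERK in the cytoplasm, was the most abundant. It had 182, 192 and 200 CPM with APB-R3 and 208, 189 and 201 CPM with vehicle, a log2 fold change of −0.07 (SE 0.09). Dusp4, a nuclear phosphatase, had 63.7, 68.9 and 62.5 CPM with APB-R3, against 70.2, 71.8 and 70.0 CPM with vehicle. APB-R3 replicate 2 came close to the vehicle libraries, and the log2 fold change was −0.12 (SE 0.11, unadjusted p = 0.264). Dusp2, another nuclear phosphatase, had 13.9, 12.9 and 17.2 CPM with APB-R3, against 11.8, 12.4 and 11.5 CPM with vehicle. All of its APB-R3 libraries lay above vehicle, led by replicate 3, and the log2 fold change of 0.29 (SE 0.20, unadjusted p = 0.152) was 0.18 without that library.

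Dusp1, an early phosphatase of p38 and JNK, is singled out after its values were seen. It had 58.4, 75.9 and 94.6 CPM with APB-R3 and 81.2, 85.02 and 105 CPM with vehicle. APB-R3 replicate 1 was the lowest library and vehicle replicate 3 the highest, with overlap between. The log2 fold change of −0.25 (SE 0.14, unadjusted p = 0.0821) became −0.10 when the lowest library was left out, −0.13 without the highest and −0.42 without APB-R3 replicate 3. Dusp5, a nuclear ERK phosphatase, had 0.721, 0.834 and 2.68 CPM with APB-R3 and 1.25, 1.51 and 1.81 CPM with vehicle. With so few counts its log2 fold change of −0.11 (SE 0.64) ran from −0.95 to 0.18 with 1 library left out.

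Ier3, a stress-induced survival gene, had 919, 853 and 854 CPM with APB-R3, against 823, 791 and 717 CPM with vehicle. The lowest APB-R3 library was above the highest vehicle library, replicate 1. Ier3 averaged 875 ± 37.8 CPM with APB-R3 and 777 ± 54.8 CPM with vehicle (SD, n = 3 each), a log2 fold change of 0.17 (SE 0.09, 95% interval −0.01 to 0.34, unadjusted p = 0.0649). It was 0.11 without vehicle replicate 3, the lowest library. Ier5, a regulator of the heat shock factor HSF1, averaged 97.7 ± 3.38 CPM with APB-R3 and 93.3 ± 3.35 CPM with vehicle.

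The remaining members overlapped between the groups. Myc, the growth regulator, had 41.4, 27.1 and 43.2 CPM with APB-R3 and 34.1, 25.1 and 34.4 CPM with vehicle. Replicate 2 was the low library in both groups, and the log2 fold change of 0.25 (SE 0.17) ran from 0.12 to 0.43 with 1 library left out. Atf3, a stress-induced CREB relative, averaged 32.2 ± 3.10 CPM with APB-R3 and 29.3 ± 5.75 CPM with vehicle, and Klf10, a TGF-beta-inducible factor, 10.2 ± 2.89 and 11.5 ± 0.507 CPM. Btg1 and Btg2, which slow cell division, each had a log2 fold change of −0.11 (SE 0.13). Btg1 was lowest in APB-R3 replicate 1, at 53.0 CPM, and its log2 fold change was 0.007 without that library. Sgk1, a kinase induced by serum and glucocorticoids, had 53.6, 51.1 and 76.4 CPM with APB-R3 and 63.6, 55.5 and 70.0 CPM with vehicle, a log2 fold change of −0.07 (SE 0.14). This sign turned without APB-R3 replicate 1 (0.001), APB-R3 replicate 2 (0.04) or vehicle replicate 3 (0.009).

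With each library left out in turn, 18 of the 30 members kept the sign of their log2 fold change, 9 higher and 9 lower with APB-R3, and 12 turned. The share of all tested genes that kept their sign was not worked out, so this count has no background beside it. Members were not lowest or highest in 1 library alone. APB-R3 replicate 1 was the lowest of the 6 libraries for 8 members, or 26.7%, where it was so for 21.7% of all tested genes, and the highest for 6. APB-R3 replicate 3 was the highest for 8 members, or 26.7% against 18.5% of all tested genes, and the lowest for 1.

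**Figure D4:**
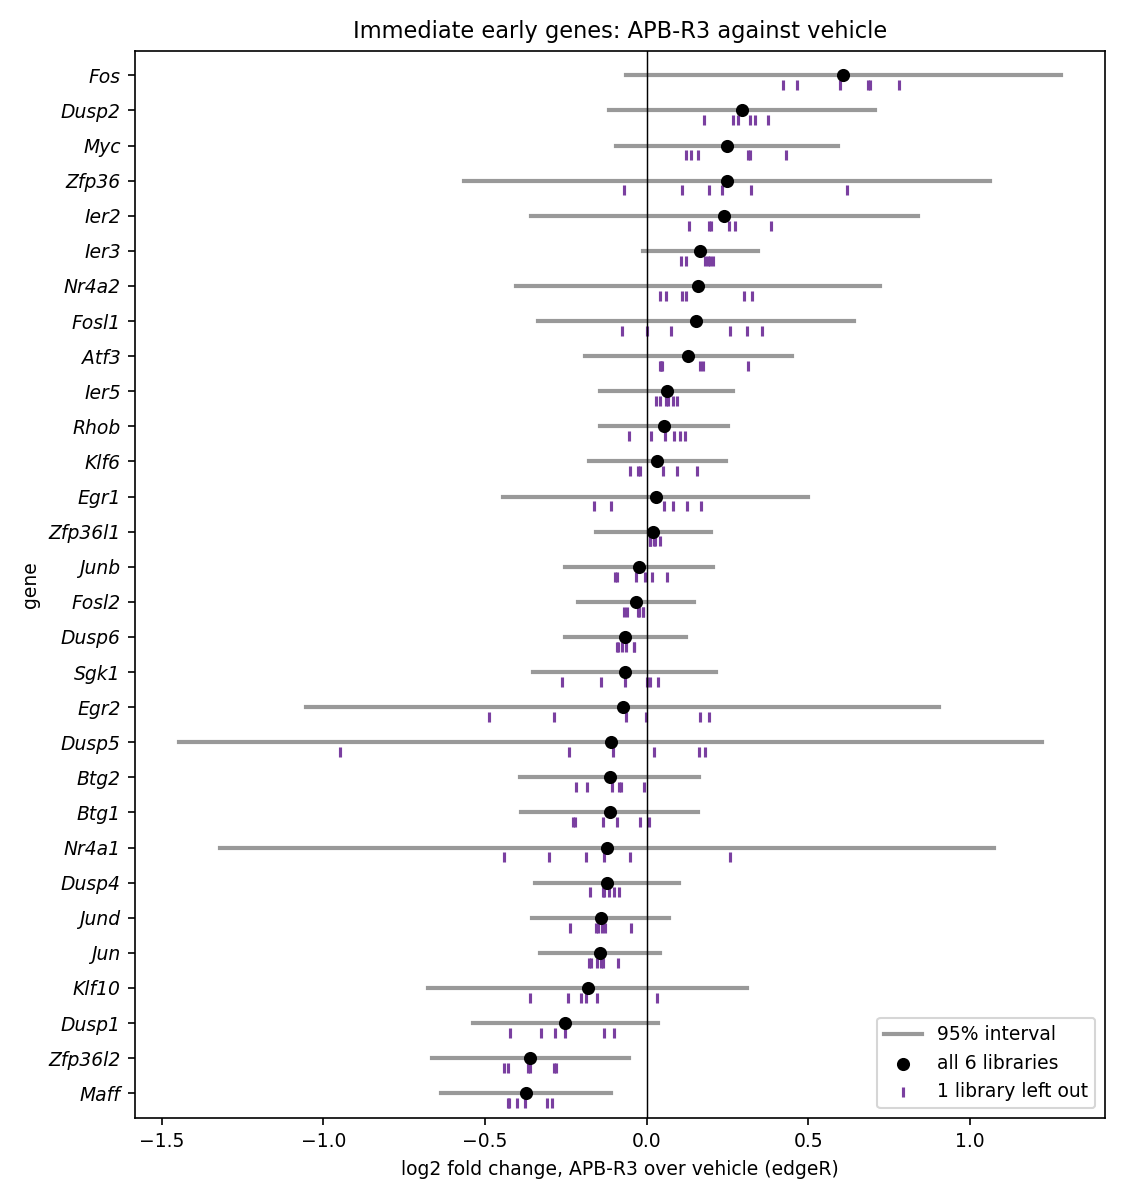
Log2 fold change of the 30 tested members, APB-R3 over vehicle, from edgeR, ordered from the highest at the top; dots are all 6 libraries, grey lines the unadjusted 95% interval, and ticks the value with 1 library left out. Fos at 0.61 and Maff at −0.37 mark the ends, and only the intervals of Maff and Zfp36l2 leave out 0.

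Promoters are shown for Maff and Fos, which mark the ends of the fold changes, and for a pair of phosphatase genes whose promoters hold the elements through which CREB and serum response factor act. Windows of the 250 bases before each transcript start were taken from RefSeq for GRCm38.p6 and searched on both strands. A window was at hand for 25 of the 33 members, 22 of them with 1 start. The cyclic AMP response element (CRE), with the letters TGACGTCA, stood in a window of 3 of the 25 members, Maff, Dusp1 and Btg2, and in 1.77% of all 27025 genes with a window. The CArG box, the element of serum response factor, stood in Dusp5, Egr2 and Zfp36, and in 1.62% of all genes. The EGR motif, with the letters GCGNGGGCG, stood in 8 members and 5.33% of all genes, and the AP-1 motif, with the letters TGACTCA, in 0 members and 5.16% of all genes. TATAAA, searched on the gene's strand only and from −40 to −21, stood in 4 members, Fos, Btg1, Sgk1 and Zfp36l1, and in 2.25% of all genes. A match is a description of these letters and not a measured site, and a missing one says only that the letters are not in this window.
The sequences run 5′ to 3′ over the 170 bases before the start. Capitals mark the CRE in Maff and Dusp1, 2 adjoining CArG boxes in Dusp5 and the TATA element in Fos. The Maff window belongs to 1 of its 3 starts in the table.
Maff, chr15:79347350-79347519, plus strand: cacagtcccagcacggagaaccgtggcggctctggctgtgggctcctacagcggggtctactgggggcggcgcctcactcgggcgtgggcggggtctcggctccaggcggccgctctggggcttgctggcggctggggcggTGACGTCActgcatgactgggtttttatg
Dusp1, chr17:26508473-26508642, minus strand: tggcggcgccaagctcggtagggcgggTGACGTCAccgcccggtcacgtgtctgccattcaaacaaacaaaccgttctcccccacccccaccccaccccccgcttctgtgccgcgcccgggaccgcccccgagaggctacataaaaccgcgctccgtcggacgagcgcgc
Dusp5, chr19:53528975-53529144, plus strand: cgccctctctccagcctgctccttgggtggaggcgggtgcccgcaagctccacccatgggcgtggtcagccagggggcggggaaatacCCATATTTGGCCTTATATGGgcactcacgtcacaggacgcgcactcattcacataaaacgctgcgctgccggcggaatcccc
Fos, chr12:85473720-85473889, plus strand: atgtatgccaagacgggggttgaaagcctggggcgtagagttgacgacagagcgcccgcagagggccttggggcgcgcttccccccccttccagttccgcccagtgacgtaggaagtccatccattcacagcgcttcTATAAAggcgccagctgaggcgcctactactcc
Of the 3 members with a CRE, Maff, Dusp1 and Btg2 had log2 fold changes of −0.37, −0.25 and −0.11, and of the 3 with a CArG box, Dusp5, Egr2 and Zfp36 had −0.11, −0.07 and 0.25, none of which passed the test. With 1 library left out, Btg2 ran from −0.22 to −0.007 and Egr2 from −0.49 to 0.19. Over all 30 tested members, 16 were lower. Tested members with the EGR motif went both ways, from −0.37 for Maff to 0.29 for Dusp2. So did those with TATAAA, from −0.11 for Btg1 to 0.61 for Fos.

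Related genes gave no call either. Among 34 other rapid response genes, 32 were tested, 19 higher and 13 lower with APB-R3, and 0 passed. Ptgs2, the inducible cyclooxygenase, had the smallest p of that list, with 21.5 ± 2.66 CPM with APB-R3 and 14.9 ± 3.37 CPM with vehicle (SD, n = 3 each) and a log2 fold change of 0.53 (SE 0.19, unadjusted p = 0.0107). Of the 21 genes of the ERK, JNK and p38 kinase cascades, 10 were higher, 11 lower and 0 passed. Map2k4, a kinase that activates JNK, had the smallest p among them, with 58.8 ± 2.04 CPM with APB-R3, 66.7 ± 4.62 CPM with vehicle and a log2 fold change of −0.19 (SE 0.11). Mapk3, which encodes ERK1, had 300.5 ± 10.6 CPM with APB-R3 and 278 ± 35.6 CPM with vehicle. Among 14 genes of factors that act at immediate early promoters, 5 were higher, 9 lower and 0 passed. Crem, a CREB relative that yields both activators and repressors, had the smallest p there, at 39.1 ± 11.8 CPM with APB-R3 and 49.8 ± 3.68 CPM with vehicle and a log2 fold change of −0.35 (SE 0.16, unadjusted p = 0.0364). Its groups overlapped. Of 18 other bZIP genes that can pair with AP-1 proteins, 13 were higher and 5 lower, with a median log2 fold change of 0.03 and 0 calls. The smallest p was that of Batf2, at 2.23 ± 0.374 CPM with APB-R3 and 1.24 ± 0.294 CPM with vehicle. Of 8 other MAP kinase phosphatases, 3 were higher and 5 lower, again with 0 calls, and Dusp14 came first by p with 24.6 ± 1.19 CPM with APB-R3 and 27.9 ± 5.40 CPM with vehicle. The median log2 fold change of each of these 5 lists lay between −0.04 and 0.04.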

How the data were processed

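The authors deposited whole-number counts of reads per gene symbol, 1 file per library, not normalized. Lexogen QuantSeq libraries were made from Trizol RNA, per the labels' protocols. Per the submitters' processing notes, bcl2fastq 2.20.0.422, fastp, STAR and HTSeq were used with the build GRCm39. The sources used here do not give other versions, the annotation, the strand setting or any use of molecular identifiers, so reads of overlapping genes may be mixed. The headers inside the files number the libraries 2 to 4, and the numbers 1 to 3 of the titles were used.

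Levels are CPM of the library total. APB-R3 was compared with vehicle in edgeR 4.0.16 (R 4.3.3) with filterByExpr (minimum count 10, minimum total 15), TMM factors and glmQLFTest, two-sided, on treatment alone. The filter kept 12776 of the 20496 genes with a count, which were tested and adjusted together by Benjamini-Hochberg at 0.05. Standard errors are the log2 fold change over the square root of F. Alternatives were other scalings, other filters, DESeq2 1.42.0, limma-voom (limma 3.58.1), a replicate block and leaving out libraries. No 2 libraries were copies, with a chi-square of at least 5.54 per degree of freedom. The fit was tested on simulated counts.

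The members and lists were chosen with earlier results of these data known. Per-library values are given for members with a mean of at least 100 CPM, an unadjusted p under 0.05, or groups apart with a log2 fold change of at least 0.25 in size. Values of other members were added after they were seen. From related lists the tested gene with the smallest p is named.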

Additional observations from a re-analysis of the deposited data

How the results depend on the processing

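Calls among immediate early genes stayed at 0 under every alternative run, DESeq2, limma-voom, other scalings and filters and each library left out included. Over all genes, 0 passed in edgeR with the filter, with 425 at an unadjusted p under 0.05. With no filter on low counts 20 passed, 8 higher and 12 lower with APB-R3, of which 0 were immediate early genes. With 1 library left out, 0 to 1 genes passed. The median log2 fold change of the members lay between −0.037 and 0.033 with 1 library left out, so its sign turned, being 0.033 without APB-R3 replicate 2. The number of members that were higher ran from 13 to 19. Without APB-R3 replicate 1 and vehicle replicate 2, chosen after seeing the data, it was 15 of 30.

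Same-numbered libraries had correlations of their deviations from the group means of 0.023, 0.027 and 0.048. Each was the highest of its libraries, a hint of pairing from the data, but all were too small for the numbers to be taken as pairs. The replicate block gave 0 calls, a median of −0.03 among members and 539 genes at an unadjusted p under 0.05, with 4 members among them, Ier3 and Dusp1 beside Maff and Zfp36l2. Intervals of the log2 fold change were wider for members with few counts, at −1.45 to 1.22 for Dusp5, −0.40 to 0.72 for Nr4a2 and −0.36 to 0.84 for Ier2.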
